A study of Mus musculus with 18 samples.

Results

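Late mammary epithelium with stabilized β-catenin was compared with the normal mammary bud, across autosomal genes. The members were the 5 E16.5 stabilized and the 4 E13.5 control libraries, 9 of the 18 libraries of the series, chosen by their labelled stage and genotype. Each library was bulk RNA from the hand-dissected epithelium of mammary buds 1 to 3, pooled from 2 to 3 embryos that shared litter and genotype, with a minimum of 3 litters, per the labels. All embryos came from a mix of C57Bl/6 and NMRI and inherited 1 Ctnnb1 allele with loxP sites around exon 3. Stabilized embryos also carried Krt14Cre, so that their Krt14-expressing epithelium, which includes the skin's, loses exon 3 from that allele and makes a β-catenin that resists breakdown beside the normal protein. Controls were littermates without Cre. The E13.5 control pools held both sexes and the E16.5 pools females alone, so stage, genotype, Cre and sex makeup cannot be told apart in this comparison. The 5 E16.5 control libraries, at the stage when the bud has begun to sprout, served to show where normal development leads. Both E16.5 groups are compared with the same 4 bud libraries. The 4 E13.5 stabilized libraries entered the model and are otherwise given as a description (n = 4). The bud libraries held 27417578 to 29310457 counts and the late stabilized libraries 29304083 to 36082518. Of 23108 autosomal genes with counts, 16580 passed the filter on low counts. Levels are CPM, counts scaled to a common library total with TMM factors, as mean ± SD with n = 4 for the bud and n = 5 for each E16.5 group. Log2 fold changes are ± SE, and p-values are from edgeR's quasi-likelihood test, adjusted by Benjamini-Hochberg. They measure the spread between pooled samples, and which libraries share a litter is not given. A gene rose or fell where its adjusted p was under 0.05.

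β-catenin carries the canonical Wnt signal. Without Wnt it is marked for destruction through residues encoded by exon 3, and with Wnt it enters the nucleus and activates targets together with Lef and Tcf factors. Mammary buds and hair follicles both begin as ectodermal placodes that need this signal. The bud then sprouts into a duct, whereas the follicle makes concentric layers of hair shaft, inner root sheath and companion layer, and the surrounding epidermis stratifies and cornifies.

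The tissue label was checked first. Epcam, an adhesion molecule of simple epithelia, had 310.4 ± 44.9 CPM in the bud and 212 ± 27.8 CPM in late stabilized libraries, and Krt5, a keratin of basal cells, had 613 ± 106 and 2556 ± 810.1 CPM. Ctnnb1 (ENSMUSG00000006932, chromosome 9, 120929216 to 120960507, GRCm38/mm10) had 2421, 2671, 3156 and 2482 CPM in the 4 bud libraries and 2223, 2218, 3211, 1693 and 2043 CPM in the 5 late ones. The groups overlapped, and the difference of -0.24 ± 0.16 did not pass (adjusted p = 0.251), but passed without late replicate 3 (-0.39, adjusted p = 0.0272). A gene count does not show whether exon 3 was lost. Krt14 (ENSMUSG00000045545, chromosome 11, 100203162 to 100207548), whose promoter drives Cre, fell from 813 ± 104 to 519 ± 244 CPM (-0.65 ± 0.23, adjusted p = 0.0312), a call lost without any 1 of bud replicates 3 and 4 and late replicates 2 to 5 (adjusted p from 0.0538 to 0.0902) and in a fit of the 9 libraries alone (0.107) or without bud replicate 3 and late replicate 4 together (0.157).

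Several libraries stood apart from their groups. In late replicate 4, 24.6% of counts fell on 12 predicted genes that resemble satellite repeats. Bud replicate 3 had 4.18% mitochondrial counts against 2.18 to 2.50% in the other 3. Late replicate 1 had by far the most epidermal transcripts: 8 markers of epidermis and periderm summed to 24450.0 CPM there, to 3640.0 to 4716 CPM in the other 4, and to 63.5 to 117 CPM in the bud. In sprouts these markers summed to 581 to 1010 CPM. Krt17, 1 of the 8, is also a keratin of the follicle's companion layer, so the sum is not of epidermis alone. It had 5245 CPM in late replicate 1 and 2030 to 2438 CPM in the other 4. The 24 Y-linked genes summed to 178 to 300.0 CPM in the bud. In the late libraries labelled female they summed to 175 CPM in replicate 4, near the lowest bud library, and to 50.3 to 89.5 CPM in the other 4. Some results that rest on these libraries are given with and without them, and the rest with them alone.

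Late stabilized libraries lay at least as far from the bud as normal sprouts, with ranges that touched and no test. The distance between libraries over all tested autosomal genes (Euclidean, on log2 CPM) was 268 to 320, with a median of 293, from bud to late stabilized, 229 to 273 (median 250) from bud to sprout, and 241 to 289 (median 260) from sprout to late stabilized. Late stabilized libraries lay 130 to 162 from each other. The first principal component held 34.9% of the variance. It put the bud at -115 to -95.8, sprouts at -36.5 to -19.4 and late stabilized libraries at 124 to 168. On the second (22.2%) the late libraries lay at 14.9 to 47.7, between sprouts at -143 to -108 and buds at 56.5 to 65.9.

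**Figure D1:**
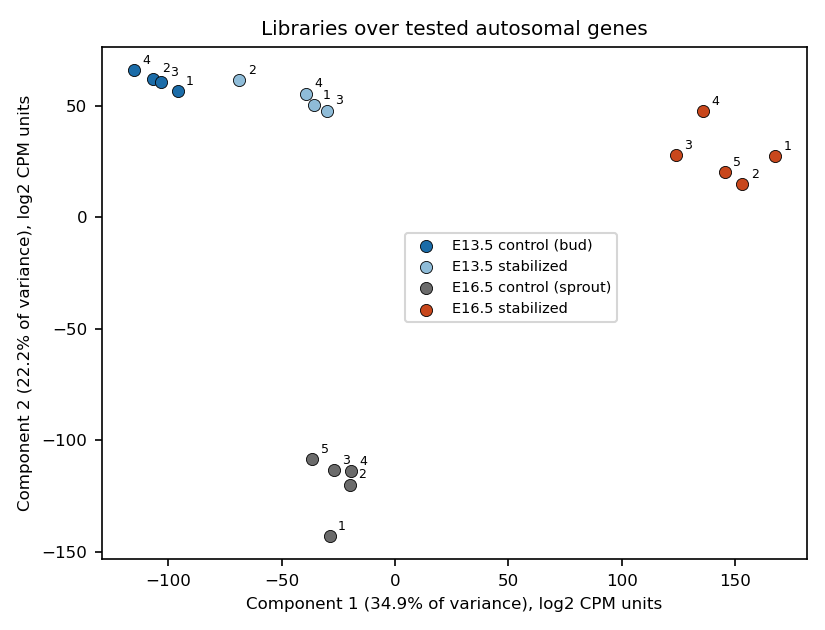
Each point is 1 library, numbered by replicate, on the first and second principal components of log2 CPM over the tested autosomal genes, coloured by stage and genotype. The 5 late stabilized libraries stand alone at the right of the first component, where all other libraries are below 0, and nearer to the buds than to the sprouts on the second.

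Of the 16580 genes 6601 were called, 39.8%. There were 3918 rises (23.6%) and 2683 falls (16.2%). These 2 shares are the background for each count of list members against the bud below. By at least 1 on the log2 scale 2601 genes rose and 1074 fell, and by at least 3 there were 1367 rises and 170 falls. The median over all tested genes was 0.026. Every late library lay above every bud library for 3085 genes (18.6%) and below for 1833 (11.1%). Normal sprouts differed from the bud at 47.7% of genes (25.1% higher, 22.6% lower, median -0.024) and from late stabilized epithelium at 42% (22.4% higher and 19.6% lower in the stabilized, median 0.095). The test of late stabilized against sprout is the test of whether the 2 E16.5 groups differ from the bud by different amounts. Where a list below has 0 members lower than the bud by edgeR, 0 were lower at an unadjusted p under 0.05 and 0 by DESeq2, except for Notch3 (unadjusted p alone) and the dermal papilla marker Corin (both). Genes under about the level of the count filter (0.335 CPM) in every bud library could hardly have been called lower by any of these. They were 13 of 15 hair keratins, 46 of 52 keratin-associated proteins, 21 of 35 cornified envelope genes and 6 of 10 immune markers. Nothing is read from 0 falls in lists that hold such genes. In bulk RNA, fewer cells of a type and less RNA per cell cannot be told apart.

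**Figure D2:**
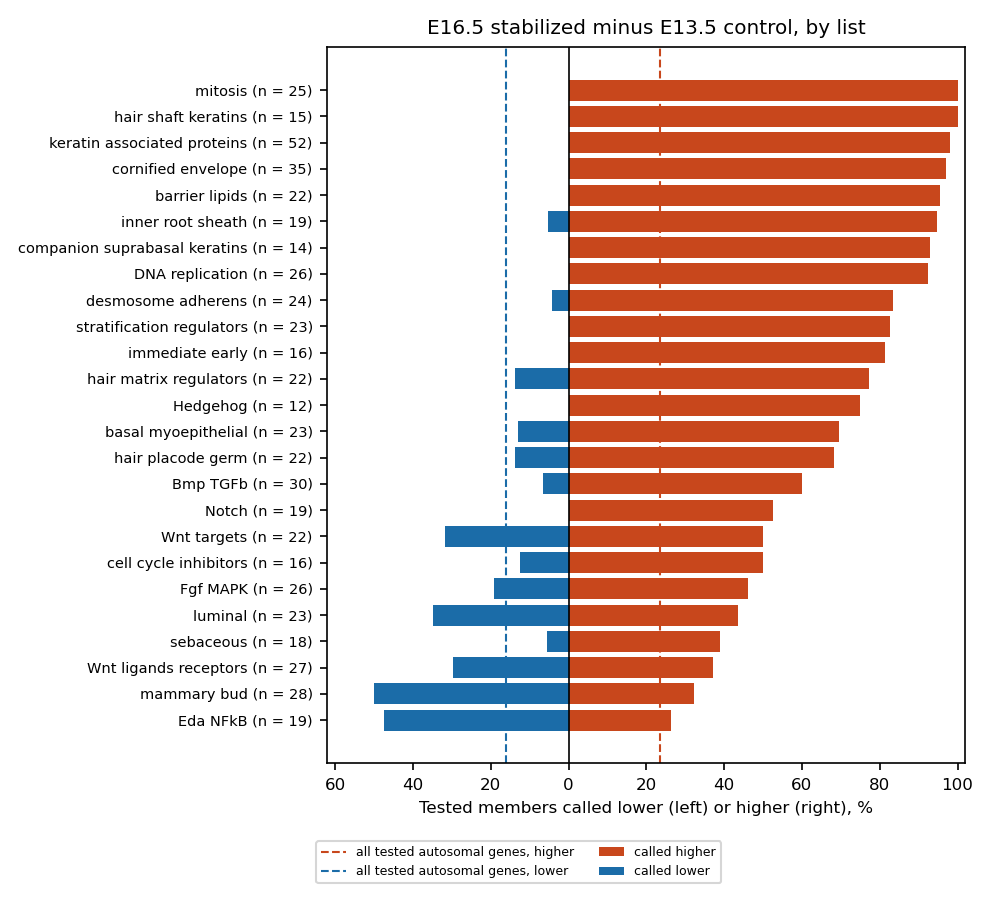
Bars give the percent of tested members of each gene list called higher (right) or lower (left) in late stabilized libraries than in the bud, and dashed lines give the same for all tested autosomal genes, 23.6% and 16.2%. All 25 lists exceed the line for higher genes, and 6 exceed the line for lower genes: mammary bud, Eda and NF-κB, luminal, Wnt target, Wnt ligand and receptor, and Fgf and MAPK genes.

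Genes that define the mammary bud split. Of 28 regulators and signals of the bud, 9 rose, 14 fell and 5 did not pass (median -0.58), against a background of 23.6% higher and 16.2% lower over all genes. In sprouts 3 of the 28 were higher and 23 lower than in the bud (median -2.33). Against sprouts, late stabilized libraries had 21 higher and 3 lower (median 1.33). The late mean lay between the bud and sprout means for 18 of 28, above both for 8 and below both for 2.

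Among the 14 members that fell were Tbx3, Hoxc8, Gata3 and Pthlh. Tbx3 (ENSMUSG00000018604, chromosome 5, 119670669 to 119684724), without which mammary buds fail to form, had 1429.7, 1361, 1036 and 1493 CPM in the 4 bud libraries, 386, 479, 466, 404 and 422 CPM in the 5 sprouts and 289, 297, 246, 201 and 255 CPM in the 5 late stabilized libraries. Every late library lay below every sprout, and every sprout below every bud. The fall from the bud was 2.37 ± 0.14 on the log2 scale (adjusted p = 1.53e-10), and the late level was also lower than that of sprouts by 0.74 ± 0.13 (adjusted p = 7.70e-05). Hoxc8 (ENSMUSG00000001657, chromosome 15, 102990607 to 102994111), a homeobox gene of the thoracic trunk that acts early in mammary placodes, had 62.4, 69.5, 74.7 and 60.3 CPM in the bud and 1.57, 1.58, 0.783, 1.79 and 0.917 CPM in late stabilized libraries, a fall of 5.65 ± 0.38. Sprouts were lower still, with 0.628 ± 0.291 CPM (late minus sprout 1.08 ± 0.35, adjusted p = 0.0192). The other members that fell were Bcl11b, Edar, Epha3, Fgfr2, Hoxc6, Lef1, Nrg3, Wnt10b and Zfp703, besides those described next and Wnt6. Gata3, a factor of mammary luminal cells and of the inner root sheath, fell from 1048 ± 179 to 281 ± 78.9 CPM (-1.90 ± 0.18, adjusted p = 8.09e-08). The sprout had 223 ± 29.4 CPM, and the difference of 0.34 ± 0.17 from it did not pass (adjusted p = 0.116). Pthlh, whose product the bud sends to the mesenchyme around it, fell from 266 ± 34.2 to 67.5 ± 16.04 CPM. It stood at 161 ± 49.1 CPM in sprouts, above every late library, and was lower in late stabilized libraries than in sprouts by 1.25 ± 0.21 (adjusted p = 1.02e-04).

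Other bud signals did not pass against the bud, although normal sprouts had lost them. Bmp2, a secreted signal of ectodermal placodes, had 265 ± 47.5 CPM in the bud, 3.93 ± 1.47 CPM in sprouts and 188 ± 31.2 CPM in late stabilized libraries. The difference from the bud was -0.49 ± 0.21 and did not pass (adjusted p = 0.0683), although each late library lay below each bud library, by less than 1 CPM for the nearest pair, and the difference from sprouts was 5.58 ± 0.24 (adjusted p = 2.87e-12). The homeobox gene Msx1 had 48.8 ± 9.32, 0.862 ± 0.445 and 42.5 ± 6.42 CPM in the same order (-0.20 ± 0.34 from the bud, adjusted p = 0.697). The ligand genes Wnt10a (-0.35 ± 0.20, adjusted p = 0.189) and Fgf20 (0.38 ± 0.29, adjusted p = 0.326) and Ltbp1, which binds latent TGF-β (-0.28 ± 0.14, adjusted p = 0.108), did not pass against the bud either, and all 5 were higher than in sprouts. Wnt6, a ligand gene of surface ectoderm, stood between: 420.3 ± 42.3 CPM in the bud, 89.6 ± 16.7 CPM in late stabilized libraries and 37.4 ± 6.50 CPM in sprouts, with both differences past the test (-2.23 ± 0.15 from the bud, 1.26 ± 0.14 from the sprout).

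A further group of bud genes exceeded the bud. Sostdc1 (ENSMUSG00000036169, chromosome 12, 36314139 to 36318452), a secreted inhibitor of Wnt and Bmp signalling, had 44.4, 36.3, 54.9 and 48.8 CPM in the bud and 699, 492, 529, 759 and 712 CPM in late stabilized libraries, a rise of 3.79 ± 0.19 (adjusted p = 1.95e-11). Sprouts, at 269 ± 10.3 CPM, lay between the groups without overlap. Dkk4, an inhibitor of Wnt that is itself a Wnt target in placodes, varied widely in the bud, with 7.84, 9.70, 66.5 and 6.44 CPM, and had 149.5, 181, 175, 135 and 158 CPM in late stabilized libraries (2.82 ± 0.59, adjusted p = 0.00135). It was 1 of the 8 genes that fell most from bud to sprout, where 4 of 5 libraries had no count. The homeobox gene Msx2 (from 19.5 ± 3.22 to 146 ± 22.5 CPM) and Tbx2, a relative of Tbx3 (from 1.68 ± 1.08 to 23.6 ± 10.5 CPM), also rose.

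**Figure D3:**
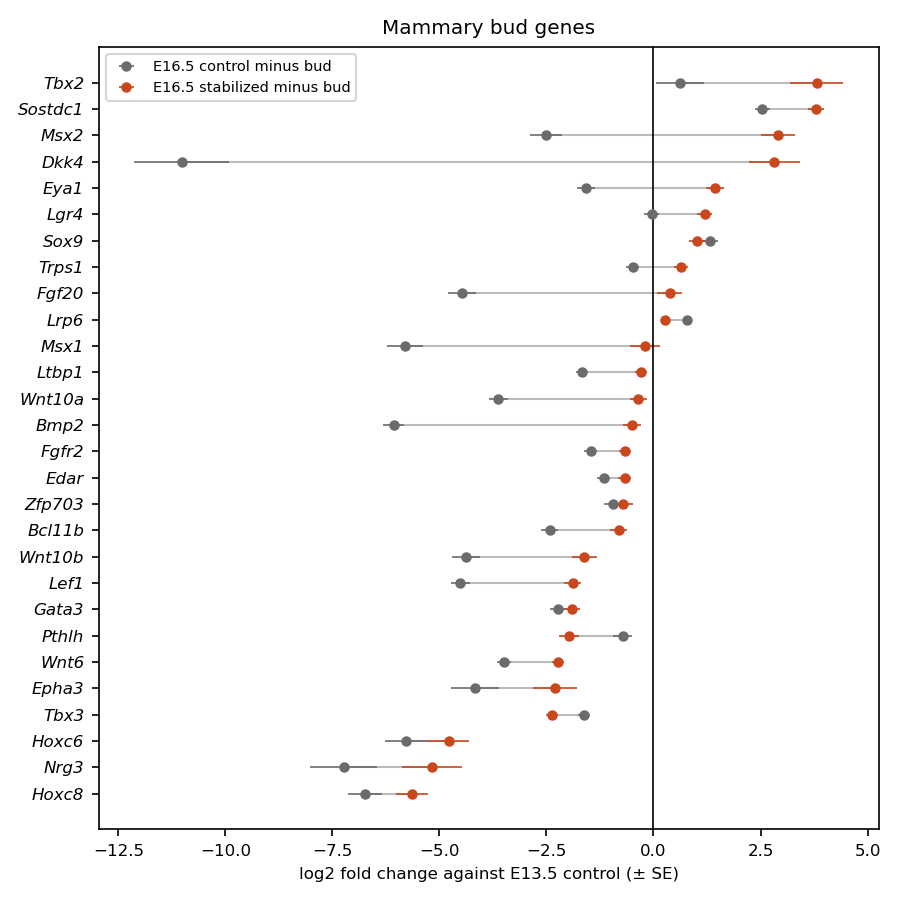
Points give the log2 fold change of each of the 28 mammary bud genes against the bud, ± SE, in E16.5 controls (grey) and E16.5 stabilized libraries (orange). The orange points lie right of the grey ones for all but 4 genes (Tbx3, Pthlh, Lrp6 and Sox9), and Hoxc8, Nrg3 and Hoxc6 lie far to the left in both groups.

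Wnt targets moved both ways around a summed level that overlapped with that of the bud. Of 22, 11 rose, 7 fell and 4 did not pass (median 0.63), where sprouts had 6 higher and 14 lower than the bud (median -2.64) and late stabilized libraries had 16 higher and 4 lower than sprouts (median 2.41). From bud to late, 23.6% of all genes rose and 16.2% fell. The summed level of the 22 was 3301 to 4330.0 CPM in bud and 3305 to 4415 CPM in late libraries. Axin2 (ENSMUSG00000000142, chromosome 11, 108920349 to 108950783), the feedback inhibitor often read as a Wnt reporter, had 352, 364, 271 and 260.4 CPM in the bud, 23.2, 30.4, 26.0, 22.3 and 37.8 CPM in sprouts and 254, 261, 317, 199 and 244 CPM in late stabilized libraries. The bud and late libraries overlapped, and both lay far above every sprout. The difference from the bud was -0.29 ± 0.16 (95% interval -0.63 to 0.055, adjusted p = 0.179). With the offsets of the deposited normalized table it was -0.68 and passed (adjusted p = 0.0296). Sp5, a transcription factor gene activated directly by β-catenin, had 21.8 ± 4.67 CPM in the bud, 0.0280 ± 0.0385 CPM in sprouts and 48.7 ± 12.9 CPM in late libraries, a rise of 1.16 ± 0.27 over the bud (adjusted p = 0.00187). Dkk1, another secreted Wnt inhibitor, had 0 counts in the 5 sprouts, 2.67 ± 0.510 CPM in the bud and 9.01 ± 5.04 CPM in late libraries (1.75 ± 0.58, adjusted p = 0.0243), a call lost without bud replicate 1 (0.0524), bud replicate 2 (0.0644) or late replicate 4 (0.0683), or without bud replicate 3 and late replicate 4 together (0.0998).

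Targets that fell were Lef1, Kremen2, Lgr5, Nkd1, Rnf43, Tnfrsf19 and Znrf3. Lef1 (ENSMUSG00000027985, chromosome 3, 131110471 to 131224356), through which β-catenin binds DNA, had 713, 694, 441 and 596 CPM in the bud and 171, 177, 133, 136 and 207 CPM in late libraries (-1.89 ± 0.20, adjusted p = 2.81e-07). Every late library was lower than every bud and higher than every sprout (26.8 ± 7.02 CPM). Kremen2, a co-receptor of the Dkk inhibitors, fell from 388 ± 44.2 to 27.7 ± 7.80 CPM (-3.81 ± 0.27), as it had in sprouts (25.1 ± 9.14 CPM). Rises were led by Bambi, a decoy receptor for Bmp and TGF-β (from 7.97 ± 1.16 to 254 ± 27.7 CPM, 4.99 ± 0.32), and the hyaluronan receptor gene Cd44 (from 20.6 ± 1.99 to 239 ± 63.8 CPM, 3.53 ± 0.25). Ccnd1, which encodes cyclin D1, did not pass (0.041 ± 0.20, adjusted p = 0.898), and neither did Tcf7, a relative of Lef1 (0.21 ± 0.18, adjusted p = 0.377), or Fgf20.

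Wnt ligands and receptors moved both ways. Of 27, 10 rose, 8 fell and 9 did not pass (median -0.013, a sign that turned under 7 of 18 alternatives), with 3 fewer rises without late replicate 1 (7 higher and 8 lower). Over all genes 23.6% rose and 16.2% fell. Wnt7a, a ligand gene of surface ectoderm, fell from 128 ± 7.28 to 10.1 ± 1.87 CPM (-3.67 ± 0.32), still above sprouts (1.08 ± 0.722 CPM). The receptor gene Fzd1 rose from 17.9 ± 2.13 to 187 ± 59.3 CPM (3.38 ± 0.23) and the co-receptor gene Ror1 from 6.08 ± 1.06 to 26.2 ± 5.76 CPM (2.11 ± 0.18). Wnt4, a ligand gene of mammary epithelium, did not pass against the bud (150.1 ± 17.4 and 121 ± 18.4 CPM, adjusted p = 0.186), and sprouts had 8.65 ± 3.01 CPM.

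The E13.5 stabilized libraries had 424 ± 57.2 CPM of Axin2, 331 ± 39.9 CPM of Lef1, 552 ± 45.1 CPM of Tbx3 and 477 ± 105 CPM of Sostdc1.

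Genes held at the bud level were then listed by a rule over all genes. A gene counted as a retained bud gene when it fell by at least 1 on the log2 scale from bud to sprout, was higher by at least 1 in late stabilized libraries than in sprouts, and had a 95% interval of late minus bud within ±1. Of 2192 genes that fell by at least 1 in sprouts, 929 met the second condition and 224 all 3, of which 205 had an ordinary symbol. They are 1.35% and 1.24% of the 16580 tested genes. Of the 205, the test called 14 lower and 11 higher in late stabilized libraries than in the bud, within those limits. On the other side, 966 of the 2192 were lower in late stabilized libraries than in the bud. These counts describe what the rule selects. The 3 groups share libraries across the conditions of the rule, so nothing is read from their agreement. The 12 retained genes with the highest bud level were Map1b, Igfbp5, Lrp1, Lrp4, Nkd1, Tenm2, Meis1, Axin2, Ptpn13, Id3, Nfat5 and Pdcd4. Of these, Map1b (-0.60 ± 0.16, adjusted p = 0.00452), Nkd1 (-0.60 ± 0.16, adjusted p = 0.00447) and Pdcd4 (-0.48 ± 0.16, adjusted p = 0.0209) were nevertheless slightly but detectably lower than in the bud, Pdcd4 not without bud replicate 3 or 4 or late replicate 4 (adjusted p 0.0674 to 0.0816), nor without bud replicate 3 and late replicate 4 together (0.153) or in the 9 libraries alone (0.0772).

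Tenm2 (ENSMUSG00000049336, chromosome 11, 36006656 to 37235964), which encodes a transmembrane adhesion protein, had 370.5, 399.6, 263 and 379 CPM in the bud, 10.9, 17.4, 12.7, 8.07 and 9.50 CPM in sprouts and 446, 382, 374, 303 and 399 CPM in late stabilized libraries. Its bud and late libraries overlapped (0.11 ± 0.18, adjusted p = 0.677), with all sprouts far below either. Id3 (ENSMUSG00000007872, chromosome 4, 136143497 to 136145755), an inhibitor of differentiation factors and a target of Bmp signals, had 264, 175, 328 and 326 CPM in the bud, 20.5, 39.0, 27.7, 30.8 and 22.2 CPM in sprouts and 341, 307, 229, 265 and 329.9 CPM in late libraries (0.11 ± 0.23, adjusted p = 0.761). Igfbp5, which binds insulin-like growth factors, had 615 ± 224, 214 ± 58.9 and 806 ± 139.5 CPM in bud, sprout and late libraries. The receptor genes Lrp1 (405 ± 108, 134 ± 15.0 and 423 ± 98.5 CPM) and Lrp4 (369 ± 83.4, 98.0 ± 9.69 and 295 ± 66.3 CPM), the second a partner of Sostdc1 in Wnt inhibition, and the homeobox gene Meis1 (322 ± 15.7, 122 ± 15.1 and 264 ± 42.7 CPM) were likewise lowest in sprouts. Nfat5, a factor of the osmotic response, had 273 ± 73.8, 129.8 ± 25.01 and 366 ± 110.2 CPM, and the phosphatase gene Ptpn13 276 ± 44.5, 122 ± 13.4 and 297 ± 60.6 CPM. Lrp4 passed as lower than the bud without late replicate 3 (-0.45, adjusted p = 0.0441), and Meis1 without late replicate 4 (-0.33, adjusted p = 0.0433) or 5 (-0.35, 0.0368). Against the 1.24% of all tested genes, the retained genes made up 5 of 28 bud genes (17.9%), 3 of 22 Wnt targets (13.6%), 3 of 27 Wnt ligands and receptors (11.1%) and 0 of the Hedgehog, Notch, hair shaft, keratin-associated protein, cornified envelope, replication and mitosis lists. The bud list names genes known from the bud, the rule asks for a bud level above the sprout, and nothing is read from these shares. The E13.5 stabilized libraries were not used by the rule. In them the mean was within 0.5 to 2 times the bud mean for 175 of the 205 genes (85.4%), lower for 17 and higher for 13. The mean lay within those limits for 80% of the 15951 tested genes with a bud mean above 0 and for 69.2% of the 2192 that fell in sprouts, and these ratios use the bud libraries that the rule used. In the E13.5 stabilized libraries the median of the 205 was 33.88 CPM, against 35.85 in the bud, 9.643 in sprouts and 33.16 in late stabilized libraries.

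The 8 largest falls from the bud included 5 genes that were also lower than in sprouts. Fev (ENSMUSG00000055197, chromosome 1, 74881509 to 74885419), a transcription factor gene known from serotonin neurons, fell from 30.5 ± 14.5 to 0.00714 ± 0.0160 CPM (1 count in the 5 late libraries together), lower than sprouts too (adjusted p = 0.0282), and Siah3, of a ubiquitin ligase family, from 30.5 ± 10.6 to 0.0597 ± 0.0870 CPM. Ndnf (ENSMUSG00000049001, chromosome 6, 65671590 to 65712326), a secreted neurotrophic factor, had 1174, 1181, 761 and 1387 CPM in the bud, 35.0, 50.9, 37.9, 38.4 and 40.5 CPM in sprouts and 2.49, 8.87, 5.45, 7.71 and 3.19 CPM in late libraries, 3 groups without overlap. Its fall was 7.66 ± 0.70 from the bud and 2.87 ± 0.56 from the sprout (adjusted p = 3.70e-07 and 6.60e-04). Erbb4 (ENSMUSG00000062209, chromosome 1, 68032186 to 69108059), a neuregulin receptor gene of mammary epithelium, fell from 130.1 ± 36.8 CPM over 14.5 ± 4.76 CPM in sprouts to 0.364 ± 0.445 CPM (-8.46 ± 0.71 from the bud, adjusted p = 5.22e-06 against sprouts). The transcription factor genes Sim2 (from 12.7 ± 14.6 to 0.0505 ± 0.113 CPM) and Irx6 (from 134 ± 12.5 to 1.01 ± 0.739 CPM) were lower than in sprouts as well (adjusted p = 0.0163 and 0.0057). For Siah3, the ephrin receptor gene Epha6 (from 45.1 ± 4.63 to 0.307 ± 0.247 CPM) and Calb1 (from 11.4 ± 19.1 to 0.0571 ± 0.128 CPM), a calcium-binding protein gene, the difference from sprouts did not pass (adjusted p = 0.157, 0.336 and 0.289). Calb1 varied among bud libraries, and its fall did not pass with the replicate block (adjusted p = 0.106).

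The 8 genes that fell most from bud to sprout divide as well. Hoxc5 fell in late stabilized libraries too (46.6 ± 3.13 to 0.614 ± 0.215 CPM), as did Rnf112, a ring finger gene (9.26 ± 3.44 to 0.0988 ± 0.144 CPM), Caln1, a calneuron gene (84.3 ± 21.0 to 4.23 ± 1.54 CPM, not past the test with the offsets of the deposited normalized table, adjusted p = 0.0741) and Calb1. The cadherin gene Cdh22 had 3.27 ± 1.01 CPM in the bud, 0 counts in sprouts and 3.31 ± 1.66 CPM in late libraries (0.015 ± 0.55, adjusted p = 0.988), and Dkk4, Sp5 and Dkk1 exceeded the bud.

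Genes that respond to Hedgehog signals rose. In this pathway Shh relieves the block that Ptch1 puts on Smo, and Gli factors then induce Gli1, Ptch1 and Hhip. Of 12 tested genes, 9 rose, 0 fell and 3 did not pass (median 1.89, 23.6% of all genes higher). Ptch1 (ENSMUSG00000021466, chromosome 13, 63508328 to 63573598), receptor and target, had 40.7, 49.0, 18.1 and 27.9 CPM in the bud, 33.4, 33.7, 37.7, 33.8 and 40.6 CPM in sprouts and 1173, 854, 1496, 870.5 and 1014 CPM in late stabilized libraries. Every late library was far above the highest bud and sprout (4.99 ± 0.28 from the bud, adjusted p = 1.40e-10). The co-receptor gene Gas1 rose from 38.9 ± 4.70 to 193 ± 51.1 CPM. Hhip, which binds and limits the ligand, had 1 count in the bud libraries and 28.9 ± 6.98 CPM in late ones, a ratio between 669 and 147448 by its counting interval. Shh, the ligand, had 0.155 ± 0.291 CPM in the bud and rose to 109.7 ± 24.6 CPM, and Gli1, the effector, had 1.23 ± 1.43 CPM and rose to 156 ± 23.9 CPM. Sprouts had 0.222 ± 0.141 and 1.81 ± 0.579 CPM. Ptch1 already stood at 1003 ± 218 CPM in the E13.5 stabilized libraries. The co-receptor gene Cdon (-0.082 ± 0.14, adjusted p = 0.698), the signal transducer Smo (0.094 ± 0.12, 0.581) and Gli3 (0.15 ± 0.13, 0.374) did not pass.

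**Figure D4:**
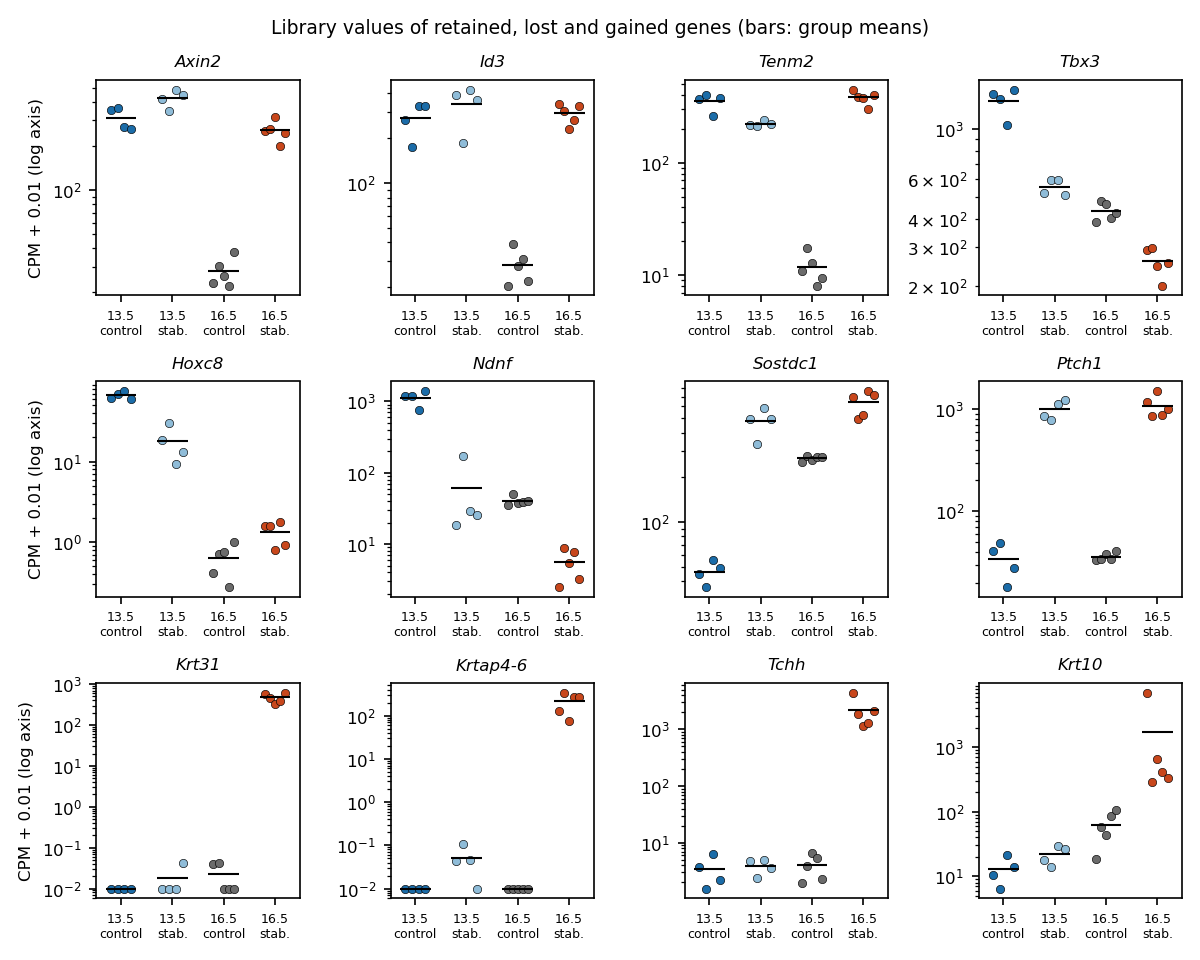
Each point is 1 library and each bar a group mean, in CPM + 0.01 on a log axis, for 4 groups and 12 genes. Axin2, Id3 and Tenm2 overlap with the bud in late stabilized libraries and are low in E16.5 controls, Tbx3, Hoxc8 and Ndnf are low, Sostdc1 and Ptch1 are above the bud, and Krt31, Krtap4-6, Tchh and Krt10 are high in late stabilized libraries alone, Krt10 with replicate 1 far above the rest.

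Bmp and TGF-β genes rose more often than they fell. Of 30, 18 rose, 2 fell and 10 did not pass (median 1.26), where 23.6% of all genes rose and 16.2% fell. The ligand genes Tgfb2 (13.47 ± 2.59 to 252 ± 51.0 CPM, 4.22 ± 0.30) and Tgfb3 (10.4 ± 1.28 to 66.5 ± 4.95 CPM, 2.67 ± 0.18) rose in every late library over every bud, as did Inhbb, an activin subunit gene (0.720 ± 0.9751 to 104 ± 23.2 CPM), which was higher still in sprouts (295 ± 26.4 CPM). The receptor genes Bmpr1b and Tgfbr1 fell. Among the 10 that did not pass were the inhibitory Smad genes Smad6 (0.53 ± 0.21) and Smad7 (-0.29 ± 0.19) and the antagonist gene Grem1 (-1.44 ± 1.01). Fgf and MAPK genes had 12 rises, 5 falls and 9 that did not pass among 26 (median 0.46), their falls near the share over all genes. The receptor gene Fgfr3 rose from 4.89 ± 2.04 to 55.4 ± 14.8 CPM, the ligand gene Fgf9 from 8.55 ± 2.50 to 55.3 ± 10.5 CPM and the feedback inhibitor gene Spry1 from 45.6 ± 4.92 to 166 ± 32.7 CPM. Fgf3, with 0 counts in the bud, reached 3.38 ± 0.724 CPM, at least 145-fold higher (against a floor of 3 counts over the bud libraries). Fgfr2, the receptor that the bud needs, fell from 846 ± 151 to 530.3 ± 68.6 CPM (-0.67 ± 0.14). Etv1, Etv4, Fgf10 and Fgf17 fell as well, and with offsets from the deposited normalized counts 3 of the list were called lower. Among those that did not pass, Spry4 had -0.49 ± 0.20 and Fgfr1 0.21 ± 0.13. Notch genes had 10 rises and 0 falls among 19 (median 0.99, 9 did not pass). The ligand gene Jag1 rose from 60.6 ± 8.50 to 241 ± 45.7 CPM, the feedback gene Nrarp from 22.1 ± 4.40 to 112 ± 37.2 CPM, and Dll1 from 2.91 ± 1.58 to 19.4 ± 5.46 CPM, where sprouts had 293 ± 25.9 CPM. Heyl, a target of Notch, rose from 0.237 ± 0.275 to 31.9 ± 7.55 CPM. The 9 that did not pass ranged from -1.04 (Mfng) to 1.63 (Hey2), and 1 member was called lower without bud replicate 3 or late replicate 1.

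Genes of Eda signalling, which acts through NF-κB in placodes, fell more often than they rose. Of 19 genes, 5 rose, 9 fell and 5 did not pass (median -0.68, 23.6% of all genes higher and 16.2% lower). The rises were near the share over all genes. Tnfrsf19, a receptor gene of the family, fell from 285 ± 20.3 to 95.6 ± 27.1 CPM, the adaptor gene Edaradd from 125 ± 18.4 to 57.6 ± 8.81 CPM and the NF-κB subunit gene Relb from 22.8 ± 7.04 to 5.33 ± 2.00 CPM. Fst, which encodes the activin antagonist follistatin, rose from 0.154 ± 0.307 to 39.6 ± 12.5 CPM. In a fit of the 9 libraries alone 3 members were called higher. Rela, Lta, Traf6, Nfkbia and Birc3 did not pass.

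Most hair follicle regulators rose. Of 22 genes of the hair placode and germ, 15 rose, 3 fell and 4 did not pass (median 2.16), and of 22 regulators of the hair matrix and its lineages, 17 rose, 3 fell and 2 did not pass (median 2.81). Over all genes 23.6% rose and 16.2% fell. The lists share genes with the Hedgehog and bud lists. Lhx2 (ENSMUSG00000000247, chromosome 2, 38339281 to 38369733), a factor that marks early follicle cells, had 0.444, 0.297, 0 and 0.809 CPM in the bud, 0.175, 0.0970, 0.188, 0.268 and 0.357 CPM in sprouts and 204, 262, 154, 134 and 186 CPM in late stabilized libraries (8.90 ± 0.54 from the bud, adjusted p = 2.14e-09). No bud or sprout library reached 1 CPM. The forkhead gene Foxc1 had 0 counts in the bud and 95.2 ± 29.7 CPM in late libraries, at least 4068-fold higher, and 36.8 ± 8.71 CPM in sprouts. Foxn1, the nude gene, which directs hair keratin expression, rose from 2.13 ± 1.502 to 90.8 ± 30.8 CPM (5.40 ± 0.47). Prdm1, a repressor of transcription in terminal differentiation, rose from 2.38 ± 0.792 to 94.6 ± 23.2 CPM (5.31 ± 0.31), and Foxe1, with 0 bud counts, reached 22.4 ± 7.54 CPM, at least 955-fold higher. Hoxc13, the homeobox factor of hair keratin genes, rose from 1.68 ± 1.35 to 93.8 ± 23.1 CPM. Gata3, Lef1 and Satb1, a chromatin organizer gene, fell. In the placode and germ list Edar, Lgr6 and Wnt10b fell, and Tcf7l1 (0.63 ± 0.25), Cd34 (-0.32 ± 0.38), Ptger4 (0.27 ± 0.36) and Fgf20 did not pass.

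Structural genes of the hair led the rises. Genes were ranked where their mean log2 CPM was at least 1, the 2 groups did not overlap and the gene was not a predicted one. Where the bud had no count, the rank follows the late level. The 8 largest rises among these autosomal genes were 3 hair keratins (Krt31, Krt35 and Krt81) and 5 keratin-associated proteins (Krtap3-2, Krtap9-1, Krtap6-5, Krtap4-6 and Krtap4-9), which cross-link the keratin filaments of the shaft. To show the sequence before the start of such genes, promoter sequence is printed from RefSeq (GRCm38.p6), 5′ to 3′ on the gene's strand and ending at the base before the start, with the motif TATAAA and, in the first, CTTTGAA, a form of the site that Lef and Tcf factors bind, in capitals. The first is Krt31 (chr11:100050552-100050801, minus strand, 250 bases), and the next 3 are the last 100 bases before Krtap4-6 (chr11:99665961-99666060, minus strand), Krtap3-2 (chr11:99556854-99556953, minus strand) and Krtap6-5 (chr16:89047900-89047999, minus strand). The last, for contrast, is Axin2, which stayed near its bud level (chr11:108920099-108920348, plus strand, 250 bases).
Krt31: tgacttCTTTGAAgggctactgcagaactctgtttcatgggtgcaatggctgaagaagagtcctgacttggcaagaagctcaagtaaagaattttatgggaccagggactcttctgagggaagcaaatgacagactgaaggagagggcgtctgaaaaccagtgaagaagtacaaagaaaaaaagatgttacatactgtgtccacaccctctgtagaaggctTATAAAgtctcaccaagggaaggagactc
Krtap4-6: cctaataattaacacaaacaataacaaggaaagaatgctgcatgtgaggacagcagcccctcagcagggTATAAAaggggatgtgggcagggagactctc
Krtap3-2: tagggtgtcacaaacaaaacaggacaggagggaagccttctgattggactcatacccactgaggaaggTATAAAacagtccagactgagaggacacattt
Krtap6-5: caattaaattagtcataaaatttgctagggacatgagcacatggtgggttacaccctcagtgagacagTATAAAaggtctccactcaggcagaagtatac
Axin2: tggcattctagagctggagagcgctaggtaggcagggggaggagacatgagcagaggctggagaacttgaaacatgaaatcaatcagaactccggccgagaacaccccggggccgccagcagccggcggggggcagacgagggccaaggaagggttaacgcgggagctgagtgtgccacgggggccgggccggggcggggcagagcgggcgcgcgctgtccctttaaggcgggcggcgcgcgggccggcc

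In the 4 gained genes TATAAA begins 29 to 32 bases before the start, and CTTTGAA begins 244 bases before the start of Krt31. Neither motif stands in the Axin2 window, nor in the 250 bases before Sp5, which rose. Only these exact letters were searched, and other forms of the Lef and Tcf site were not. Of 22 Wnt targets 12 had a promoter, with TATAAA within 250 bases on either strand in 2 and CTTTGAA in 1. Promoters were found for 46 of 52 keratin-associated protein genes, 9 of 15 hair keratins, 16 of 19 inner root sheath genes, 30 of 35 cornified envelope genes and 14 of 28 bud genes. TATAAA, on either strand within 250 bases, stood in 37 of the 46 keratin-associated protein promoters (80.4%), 6 of 9 hair keratin, 8 of 16 inner root sheath, 10 of 30 cornified envelope and 0 of 14 bud promoters, against 13% of the promoters of 25748 autosomal genes. In the last 40 bases and on the gene's strand it stood in 27 of 46, 4 of 9, 7 of 16, 8 of 30 and 0 of 14, against 2.59% of all. CTTTGAA, on either strand, stood in 5 of 9 hair keratin promoters, 7 of 46 keratin-associated protein promoters, 1 of 16 inner root sheath, 1 of 30 cornified envelope and 1 of 14 bud promoters, against 4.61% of all. A match of one motif cannot overlap a match of the other. A match is a description of the letters.

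Krt31 (ENSMUSG00000048981, chromosome 11, 100046646 to 100050551), an acidic hair keratin, had 0 counts in all 4 bud libraries and 585, 457, 330.3, 384 and 616 CPM in the 5 late stabilized ones, at least 20282-fold higher (adjusted p = 1.70e-12). Sprouts had 0.0123 ± 0.0169 CPM. Krt35 (at least 8049-fold), Krtap9-1 (at least 10649-fold), Krtap6-5 (at least 9947-fold) and Krtap4-9 (at least 7679-fold) also had no bud count. Krt81 had 3 counts in the bud and 1097 ± 286 CPM in late libraries, a ratio between 16075 and 227804 by its counting interval. Its relatives Krt83 and Krt84 reached 638 ± 202 and 339.6 ± 194 CPM from 0.0319 ± 0.0265 and 0.0155 ± 0.0180 CPM. Krtap3-2 had 554, 1136, 148, 802 and 1023 CPM in late libraries and 1 count in the bud, a ratio between 17088 and 3760700.0 by its counting interval. Krtap4-6 (ENSMUSG00000075566, chromosome 11, 99665043 to 99665960) had 129.6, 337, 73.5, 275 and 266 CPM in late libraries, at least 9242-fold above the bud, and 0 counts in every bud and every sprout library. Of 16 hair keratins listed, 15 were tested and all 15 rose, and of 58 keratin-associated protein genes listed 52 were tested and 51 rose. 13 of the 15 and 46 of the 52 were under 0.335 CPM, about the level of the count filter, in every bud library. Such genes entered the test through the late libraries and could hardly have been called lower, so these counts describe the late libraries and support nothing further. Members of these families are near-identical in sequence, and how reads were shared among them is uncertain. Late means of the keratin-associated proteins named for the smallest adjusted p were 146 ± 32.2 CPM for Krtap6-2, 162 ± 68.7 for Krtap19-9b, 87.9 ± 24.8 for Krtap15 and 137 ± 43.5 for Krtap17-1. Krtap12-1 was the member that did not pass (0.251 ± 0.324 and 2.91 ± 1.93 CPM, adjusted p = 0.0967).

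The summed level of the hair keratins was 0.476 to 0.809 CPM in the bud, 0.321 to 1.91 CPM in sprouts and 5414 to 8687 CPM in late libraries, a 1.60-fold range among the 5. The keratin-associated proteins ranged more widely, from 4967 CPM in late replicate 3 to 21550.0 CPM in replicate 2, 4.34-fold. Inner root sheath genes, which encode the keratins and trichohyalin of the layers that mould the shaft, rose for 18 of 19, and Gata3 fell. 9 of the 19 were under the level of the filter in every bud library. Tchh (ENSMUSG00000052415, chromosome 3, 93442330 to 93449077), trichohyalin, had 3.79, 1.55, 6.32 and 2.23 CPM in the bud and 4434, 1886, 1133, 1318 and 2105 CPM in late libraries (9.29 ± 0.69, adjusted p = 2.99e-08), highest in replicate 1 and without overlap. Padi3, an enzyme that modifies trichohyalin, rose from 4.68 ± 1.48 to 59.3 ± 16.4 CPM, and the sheath keratin gene Krt72, with 0 bud counts, reached 48.9 ± 24.2 CPM, at least 2091-fold higher. Markers of pigment cells, which reach the skin and follicles from the neural crest, were also higher than in the bud. Unlike the hair genes, they were higher in sprouts too: 10 of them summed to 25 to 30.7 CPM in the bud, 113 to 181 CPM in sprouts and 171 to 269 CPM in late libraries. Against the bud 7 rose and 0 fell in late libraries, and 6 rose and 0 fell in sprouts. Late against sprout, 3 were higher and 0 lower (median 0.379). Tyrp1, Mlana, Slc45a2 and Oca2 were at 0 in the bud. Mitf, the regulator of the pigment cell, rose from 10.4 ± 1.27 to 53.6 ± 9.35 CPM, Dct, a melanin enzyme gene, from 2.43 ± 2.06 to 74.9 ± 18.7 CPM and Pmel, of the pigment granule, from 1.43 ± 1.27 to 48.2 ± 9.64 CPM. Their part in the hair result was not tested.

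Epidermal genes rose too, and here 1 library weighed heavily. Of 14 tested companion layer and suprabasal keratins 13 rose and 0 fell, of 35 cornified envelope genes 34 and 0, and of 22 genes of barrier lipids 21 and 0. In sprouts 10 of the 14, 11 of the 35 and 8 of the 22 were already higher than in the bud, with 0, 1 and 3 lower. Late against sprout, 12, 34 and 21 were higher and 0, 0 and 1 lower. 21 of the 35, 6 of the 14 and 5 of the 22 were under the level of the filter in every bud library. Without late replicate 1 the rises over the bud were 13 of 14, 32 of 32 and 20 of 22 tested, and the summed levels fell. The cornified envelope genes summed to 20740.0 CPM in replicate 1 and 2852 to 3891 CPM in the other 4, with 137 to 192 CPM in the bud and 138 to 258 CPM in sprouts. The keratins of the list summed to 27050.0 CPM in replicate 1 and 4164 to 5352 CPM in the others, with 30.8 to 79.0 CPM in the bud and 675 to 1299 CPM in sprouts. The lipid genes summed to 2655 CPM in replicate 1 and 831 to 1027 CPM in the others, with 194 to 216 CPM in the bud and 196 to 235 CPM in sprouts.

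**Figure D5:**
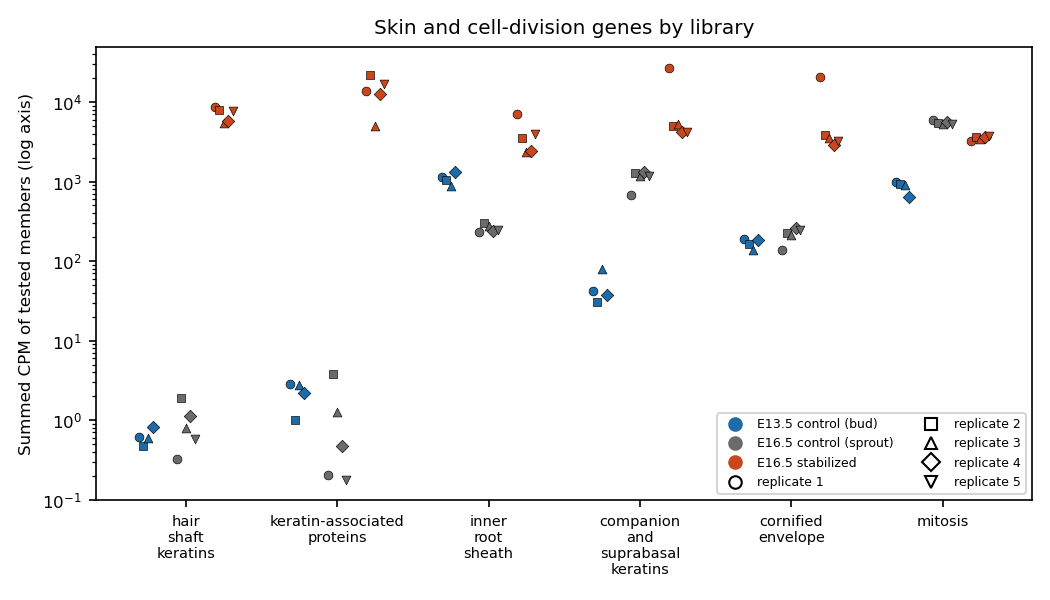
Points give the summed CPM of the tested members of 6 gene lists in each bud, sprout and late stabilized library, on a log axis, with the symbol giving the replicate. Late replicate 1 (circle) stands at 20740 CPM for the cornified envelope against 2852 to 3891 CPM in the other 4, whereas for hair shaft keratins the 5 late libraries lie between 5414 and 8687 CPM, and for mitosis genes they lie between the bud and the sprouts.

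Krt10 (ENSMUSG00000019761, chromosome 11, 99385254 to 99389364), the keratin of the first suprabasal layers, had 10.6, 6.45, 21.4 and 14.0 CPM in the bud, 18.8, 58.3, 43.4, 85.4 and 106 CPM in sprouts and 6963, 288, 652, 409 and 332 CPM in late libraries. Each late library was above each sprout and bud. The difference was 7.04 ± 1.18 (adjusted p = 2.15e-04) and 4.98 without replicate 1 (adjusted p = 5.33e-06). Flg, filaggrin of the granular layer, had 0.0377 ± 0.0559 CPM in the bud and 3312, 39.8, 134, 56.5 and 11.6 CPM in late libraries. Asprv1, a protease that processes filaggrin, rose from 8.30 ± 3.39 to 508 ± 349 CPM (5.93 ± 0.51, 5.41 without replicate 1), and Tgm1, the transglutaminase that cross-links the envelope, from 1.29 ± 0.828 to 64.5 ± 50.3 CPM (5.65 ± 0.55, 5.03 without replicate 1). Lypd3 rose from 7.12 ± 1.19 to 257 ± 160.0 CPM and Calml3, a calmodulin relative of differentiating epithelium, from 0.252 ± 0.428 to 255 ± 153 CPM. Of the epidermis and periderm markers, Krtdap (0.216 ± 0.413 to 192 ± 169 CPM), Sbsn (4.11 ± 1.78 to 393 ± 479 CPM) and Krt6a (0.455 ± 0.789 to 1329 ± 1458 CPM) rose with them. Without replicate 1 the log2 fold changes were 9.10 for Krtdap (from 9.83), 5.43 for Sbsn (from 6.57), 10.56 for Krt6a (from 11.54) and, among genes described below, 4.44 for Elovl4 (from 5.07) and 3.32 for Dgat2 (from 4.06), and all 5 still passed. Krt17, a keratin of companion layer and periderm, rose from 27.5 ± 13.4 to 2823 ± 1363 CPM, and Krt75, of the companion layer, from 1 count to 218 ± 94.6 CPM (a ratio between 4929.8 and 1085010.0 by its counting interval). Krt79, of the follicle's opening, rose from 0.0238 ± 0.0160 to 170.5 ± 112 CPM and Krt80 from 0.223 ± 0.242 to 297 ± 178 CPM. Krt4 did not pass (0.16 ± 1.51, adjusted p = 0.949), nor did Flg2, whose 0 bud counts stood against 106, 0.663, 9.57, 2.64 and 0.238 CPM (adjusted p = 0.0689). Among lipid genes, Cers3, a ceramide synthase gene, rose from 10.6 ± 2.46 to 67.4 ± 36.1 CPM, Elovl4 and Elovl7, which lengthen fatty acids, from 5.41 ± 1.42 to 182 ± 145 CPM and from 2.56 ± 0.266 to 26.7 ± 15.0 CPM, and Smpd1, acid sphingomyelinase, from 21.0 ± 2.79 to 85.9 ± 18.5 CPM. Alox12e did not pass (adjusted p = 0.065).

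Regulators of stratification rose for 19 of 23 and fell for 0 (median 2.25, and 1.90 without late replicate 1). In sprouts 14 of the 23 were higher than in the bud and 3 lower (median 0.955). Late against sprout, 16 were higher and 4 lower. Grhl1, a factor of desmosome genes, rose from 7 ± 1.09 to 244 ± 88.1 CPM, Ehf, an Ets factor of stratified epithelium, from 0.133 ± 0.182 to 43.6 ± 10.5 CPM, close to the mean of sprouts (44.2 ± 2.67 CPM), and Ets1 from 0.480 ± 0.310 to 13.3 ± 3.74 CPM, far below sprouts (216 ± 6.96 CPM). Trp63, which encodes the master factor p63, rose from 414 ± 50.8 to 732 ± 41.2 CPM, where sprouts had fallen to 92.1 ± 12.1 CPM. Grhl2, Tfap2c, Elf3 and Tfap2a did not pass (log2 fold changes of late against bud -0.12, 0.029, 0.065 and 0.39). Cell junction genes rose for 20 of 24 (median 1.90, and 1.68 without late replicate 1). In sprouts 8 of the 24 were higher than in the bud and 4 lower. The desmosomal cadherin genes Dsg3 (3.90 ± 0.988 to 270.3 ± 65.4 CPM), Dsc2 (16.3 ± 3.27 to 299 ± 63.4 CPM) and Dsc3 (66.2 ± 15.1 to 666 ± 171 CPM) rose in every late library over every bud. The member that fell was Nectin3, an adhesion molecule gene, from 325 ± 46.2 to 80.6 ± 8.92 CPM (-2.01 ± 0.15), with 44.4 ± 4.25 CPM in sprouts. Ctnnd1 (0.26 ± 0.12), which encodes p120-catenin, Nectin1 (0.23 ± 0.16) and Nectin2 (-0.24 ± 0.17) did not pass.

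Mammary cell types gave mixed counts, where 23.6% of all genes rose and 16.2% fell. Of 23 tested luminal genes 10 rose, 8 fell and 5 did not pass (median 0.22, but -0.059 with 9 higher and 8 lower without late replicate 1). The receptor gene Kit fell from 75.9 ± 12.7 to 19.4 ± 5.07 CPM (-1.97 ± 0.22), whereas sprouts had 69.0 ± 7.97 CPM. The luminal keratin gene Krt8 fell from 268 ± 32.8 to 51.3 ± 28.3 CPM (-2.38 ± 0.33, and -2.26 ± 0.32 against sprouts), and Esr1, the estrogen receptor gene, from 32.1 ± 6.15 to 3.40 ± 3.19 CPM. Krt7, of simple epithelium, rose from 1.10 ± 0.322 to 135 ± 75.0 CPM (6.94 ± 0.49), and Ly6d, a surface protein gene of stratified epithelium, had 3 bud counts and 236 ± 116 CPM in late libraries (a ratio between 3406 and 48276 by its counting interval). Stat5a (-0.43 ± 0.30), Cldn4 (0.22 ± 0.23), Erbb3 (0.11 ± 0.16), Krt19 (0.17 ± 0.32) and Areg (0.45 ± 0.89) did not pass. Of 23 basal and myoepithelial genes 16 rose, 3 fell and 4 did not pass (median 1.34). In sprouts 11 of these were higher than in the bud and 5 lower (median 0.537). Late against sprout, 10 were higher and 6 lower. Lamb3 (23.6 ± 3.79 to 211 ± 39.4 CPM) and Lama3 (154 ± 24.6 to 333 ± 30.3 CPM), laminin genes of the basement membrane, rose. Tagln, of contractile cells, rose from 0.715 ± 0.441 to 9.09 ± 2.43 CPM. Actg2, a smooth muscle actin gene of myoepithelium, did not pass (1.80 ± 0.81, adjusted p = 0.0912), and sprouts had 45.9 ± 13.6 CPM. Sox10, a factor of mammary epithelial precursors and of neural crest, had 1.32 ± 0.507 CPM in the bud, 554 ± 59.0 CPM in sprouts and 29.6 ± 19.9 CPM in late libraries, and is also a marker of Schwann and pigment cells. Of 18 sebaceous genes 7 rose, 1 fell and 10 did not pass (median 0.35). Scd1, a desaturase gene, rose from 4.57 ± 2.86 to 39.8 ± 18.8 CPM, not past the test with the offsets of the deposited normalized table (adjusted p = 0.0601), and Pparg, the regulator of sebocytes, did not pass (0.44 ± 0.49, adjusted p = 0.518). Dgat2, of triglyceride synthesis, rose from 2.42 ± 1.30 to 40.4 ± 36.3 CPM. Soat1, which esterifies cholesterol, was the member that fell (-0.89 ± 0.14), a call lost with the same offsets (-0.36, adjusted p = 0.479).

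Cell division genes stood between bud and sprout. Bud epithelium is known to divide little before it sprouts. Of 26 DNA replication genes 24 rose, 0 fell and 2 did not pass (median 0.89), and of 25 mitosis genes 25 rose, 0 fell and 0 did not pass (median 1.91). Against sprouts 0 were higher, 23 of the replication genes were lower (median -1.07) and 20 of the mitosis genes (median -0.81). The late mean lay between the bud and sprout means for 25 of 26 and 25 of 25. Mki67 (ENSMUSG00000031004, chromosome 7, 135689784 to 135716361), the Ki-67 antigen of cycling cells, had 217, 221, 149 and 116 CPM in the bud, 1368, 1299.9, 1225, 1372 and 1189 CPM in sprouts and 943, 1035, 858, 1144 and 1060.4 CPM in late libraries. Every late library was above every bud (2.52 ± 0.19, adjusted p = 4.35e-09), and the difference of -0.36 ± 0.16 from sprouts did not pass (adjusted p = 0.0901). The ribonucleotide reductase gene Rrm2 rose from 28.7 ± 4.45 to 93.9 ± 15.0 CPM and the helicase gene Mcm3 from 52.5 ± 3.85 to 106 ± 15.9 CPM, both under sprouts (212 ± 29.2 and 274 ± 20.1 CPM). Mcm4 rose from 82.1 ± 7.59 to 173 ± 20.4 CPM and Mcm10 from 10.2 ± 3.88 to 31.1 ± 4.27 CPM, the second not past the test with the offsets of the deposited normalized table (0.50, adjusted p = 0.152). In mitosis, Ccna2, cyclin A2, rose from 26.6 ± 7.02 to 121 ± 15.1 CPM, Top2a, the topoisomerase of condensing chromosomes, from 124 ± 22.8 to 444 ± 36.0 CPM and Anln, of the cleavage furrow, from 19.4 ± 3.67 to 93.9 ± 12.2 CPM. Gins1 (0.088 ± 0.24) and Gins2 (-0.12 ± 0.33) did not pass.

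Among 16 inhibitors of the cell cycle 8 rose, 2 fell and 6 did not pass (median 1.00). In sprouts 9 of the 16 were higher than in the bud and 4 lower (median 0.64). Late against sprout, 8 were higher and 1 lower. Cdkn1a (ENSMUSG00000023067, chromosome 17, 29090976 to 29100727), which encodes p21, had 7.57, 7.94, 8.39 and 16.7 CPM in the bud, 24.5, 37.5, 33.8, 41.4 and 43.4 CPM in sprouts and 508, 268, 319, 253 and 297 CPM in late libraries (5.02 ± 0.33, adjusted p = 2.31e-09). All late libraries were above all sprouts, and all sprouts above all buds. Cdkn1b, which encodes p27, rose from 32.0 ± 3.09 to 85.7 ± 11.5 CPM, and Btg1, an antiproliferative gene, fell from 793 ± 123 to 242 ± 26.7 CPM, as did Cdkn1c. Rb1 (0.40 ± 0.17), Cdkn2a (4.39 ± 1.88), Btg2, Rbl2, Gadd45a and Cdkn2d did not pass. Immediate early genes, which respond to handling as well as to growth signals, rose for 13 of 16 and fell for 0 (median 2.73, and 1.92 with 11 rises without late replicate 1). In sprouts 11 of the 16 were also higher than in the bud and 1 lower (median 2.22). Late against sprout, 3 were higher and 3 lower. The 16 summed to 6226 CPM in late replicate 1, 1277 to 2096 CPM in the other 4, 570.2 to 916 CPM in the bud and 1126 to 2960 CPM in sprouts. Jun, with a log2 fold change of 2.87, had 2.30 without replicate 1. Egr3 rose from 0.942 ± 0.673 to 57.0 ± 17.7 CPM and Jun from 65.6 ± 25.7 to 479 ± 350.5 CPM. Fosl1, Fosl2 and Ier2 did not pass.

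Markers of other cells in the dissected tissue were counted beside these lists. Mesenchyme markers summed to 752 to 1470.0 CPM in the bud and 937 to 1330.0 CPM in late libraries, and of 14, 4 rose, 2 fell and 8 did not pass. Vim, vimentin, fell from 463 ± 81.9 to 175 ± 42.3 CPM, and Dcn, a proteoglycan gene of dermis, rose from 2.03 ± 1.76 to 301 ± 74.7 CPM. Dermal papilla markers, of which Hhip is also in the Hedgehog list, summed to 286 to 416 and 462 to 723 CPM, with 4 of 8 higher and 0 lower. Neural and Schwann markers summed to 119 to 182 and 181 to 316 CPM. Of 10, 3 rose and 0 fell, among them Tubb3, a tubulin gene of neurons (8.32 ± 2.14 to 72.1 ± 12.8 CPM). Merkel cell markers summed to 47.0 to 56.7 and 62.4 to 90.4 CPM, with 2 of 5 higher and 0 lower, and Atoh1, the gene that specifies the cell, was at 0 in both groups. Isl1, with 0 bud counts, reached 27.1 ± 3.57 CPM, at least 1159-fold higher. At 0 in the bud were Lyz2, C1qa, Adgre1, Tyrobp and Cd52 of the immune markers, Tek and Cldn5 of the endothelial, Des, Myog, Tnnt3 and Myh3 of the muscle and Stmn2, Foxd3 and Nefm of the neural markers. Immune markers summed to 1.86 to 3.63 and 9.09 to 11.0 CPM (5 of 10 higher, 0 lower), endothelial markers to 5.53 to 14.0 and 7.29 to 15.0 CPM (2 of 8 higher, 0 lower), and muscle markers to 1.94 to 10.2 and 8.45 to 17.3 CPM (0 of 6 in either direction by edgeR and by DESeq2, and Tnnt3 higher at an unadjusted p under 0.05). Of 3 adipocyte markers Fabp4 and Cebpa were higher, and the red cell gene Hbb-bt rose from 0 counts to 0.522 ± 0.688 CPM, a call lost when any 1 of 6 of the 9 libraries was left out (adjusted p 0.0651 to 0.089). Sprouts had sums of 713 to 1170 CPM for mesenchyme, 240 to 290 CPM for dermal papilla and 29.7 to 45 CPM for Merkel cell markers. For neural and Schwann markers they had 356 to 380 CPM and for immune markers 17.3 to 25.4 CPM, both above every late library. Endothelial markers summed to 6 to 18.8 CPM in sprouts and muscle markers to 2.26 to 33.2 CPM. The part of these cells in the gene lists was not tested.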

How the data were processed

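RNA libraries were made with the Ovation SoLo kit, per the labels. Salmon 0.99.0, Trimmomatic 0.39, DESeq2 3.15, FastQC 0.11.8, MultiQC 1.9 and the build mm10 appear in the submitters' processing notes, which give no role or order. The authors deposited estimated counts per gene, which are whole numbers in the file and were used as they stand. They also deposited a signal table of normalized counts, used only for the offsets of 1 alternative.

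All 18 libraries were fitted with edgeR 4.0.16 in R 4.3.3 (TMM scaling, filterByExpr by group with a minimum count of 10, robust quasi-likelihood fit, 1 mean per group), with p-values adjusted over all 17269 tested genes. Autosomal genes, by GENCODE positions on GRCm38, are reported. 186 gene identifiers without a position were left out. Estimated counts split reads between near-identical genes, which makes single members of the keratin-associated protein family uncertain. CPM are relative to TMM-scaled totals, and distances used log2 CPM with a prior count of 2. Folds against 0 bud counts use a floor of 3 counts over the bud libraries (0.0234 CPM), and ratios on 1 to 3 counts carry a 95% counting interval. Both cover counting error only. The comparison was also run on simulated counts that varied less between libraries than these data and held no library that stood apart. That run does not show how the fit behaves on the present libraries.

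The members and gene lists were chosen with earlier results of these data known. Named genes were Ctnnb1, Krt14, Axin2 and Lef1, the 8 largest changes per direction (mean log2 CPM of at least 1, no overlap between groups, no predicted genes), the 4 or fewer members of each list whose adjusted p was smallest, members that did not pass, the 8 largest falls from bud to sprout and up to 12 retained bud genes. All other genes named were chosen after their values were seen. Alternatives were RLE scaling, no filter on low counts, DESeq2 1.42.0, a fit of the 9 libraries alone, a replicate block, the deposited offsets, adjustment over autosomal genes alone and leaving out each replicate. Leaving out both bud replicate 3 and late replicate 4, or the satellite-like and mitochondrial genes, was added after the data were seen. Promoters were taken as 1 window per gene, the 250 bases before the start, for 25748 autosomal genes.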

Additional observations from a re-analysis of the deposited data

Results flagged for a closer look

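Values that lie far from the other libraries of their group were found by Dixon's test (95% critical value) over the 4 bud and the 5 late stabilized libraries. Of 564 sets of values, for genes named in the text, list sums and library shares, 83 held such a value. For independent values with a normal spread, chance alone gives about 1 in 20. Here sums were tested beside their own members, and some genes were named after their values were seen, so no excess is read from the 83. Near 0 a single count is enough to meet the rule. Late replicate 1 held 32 of the 83, and bud replicate 3 held 17. Why these libraries stood apart was not tested.

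Late replicate 1 was the highest for Actg2 (0.995 CPM against 0.272 to 0.442), Asprv1 (1111 CPM against 250.4 to 490.1), Btg2 (105 CPM against 31.3 to 48.1) and Cdkn1a (508 CPM against 253 to 319). Likewise highest there were the values for Cebpa (82.5 CPM against 20.8 to 30.8), Cers3 (130.1 CPM against 38.9 to 62.3), Cldn4 (234 CPM against 79.7 to 109.9) and Dgat2 (105 CPM against 17.6 to 30.8). Also highest in that library stood Elovl4 (438 CPM against 83.8 to 142), Flg (3312 CPM against 11.6 to 134), Flg2 (106 CPM against 0.238 to 9.57) and Fosl1 (11.0 CPM against 0.750 to 1.80). There, too, the highest value was found for Ier2 (161 CPM against 59.2 to 76.4), Jun (1090.0 CPM against 244 to 453), Krt10 (6963 CPM against 288 to 652) and Krt17 (5245 CPM against 2030.0 to 2438). It was also the highest for Krt6a (3931 CPM against 528 to 783), Krt7 (264 CPM against 80.8 to 132), Krt80 (608 CPM against 162 to 269.5) and Krtdap (492 CPM against 93.0 to 160.2). The same library was highest for Lypd3 (536 CPM against 137 to 229), Nfkbia (133 CPM against 64.3 to 71.6), Sbsn (1247 CPM against 116 to 234) and Tgm1 (153 CPM against 29.1 to 52.9). Likewise highest there were the values for the sum of companion layer and suprabasal keratins (27050.0 CPM against 4164 to 5352), the sum of cornified envelope genes (20740.0 CPM against 2852 to 3891), the sum of barrier lipid genes (2655 CPM against 831 to 1027) and the sum of stratification regulators (5657 CPM against 3165 to 3847). Also highest in that library stood the sum of junction genes (27460.0 CPM against 12310.0 to 15170.0), the sum of immediate early genes (6226 CPM against 1277 to 2096), the sum of adipocyte markers (94.8 CPM against 25.8 to 35.9) and the sum of epidermis and periderm markers (24450.0 CPM against 3640.0 to 4716). Late replicate 2 was the highest for Cd52 (0.631 CPM against 0 to 0.136), Epha3 (9.94 CPM against 1.95 to 3.96), Fgf10 (0.757 CPM against 0 to 0.102) and Sim2 (0.252 CPM against 0 in the others). Late replicate 4 was the highest for Birc3 (41.6 CPM against 11.9 to 15.8), Calb1 (0.286 CPM against 0 in the others), Cd34 (17.4 CPM against 6.17 to 6.96) and Fev (0.0357 CPM against 0 in the others). It was also the highest for Gins2 (44.95 CPM against 15.7 to 20.2). The same library was highest for the share of counts on satellite-like predicted genes (24.6% against 0.0205 to 0.0994). Likewise lowest there were the values for Etv4 (39.0 CPM against 64.1 to 70.0), Smo (140.0 CPM against 187 to 199.8) and Sp5 (26.1 CPM against 50.2 to 56.8).

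Bud replicate 1 was the highest for Actg2 (0.503 CPM against 0 in the others), Calml3 (0.887 CPM against 0 to 0.119), Krt75 (0.0296 CPM against 0 in the others) and Krtap6-2 (0.0296 CPM against 0 in the others). Likewise highest there were the values for Shh (0.592 CPM against 0 to 0.0297). Also lowest in that library stood the share of counts on satellite-like predicted genes (0.0224% against 0.198 to 0.203). Bud replicate 2 was the highest for Alox12e (0.625 CPM against 0 to 0.0296) and Edar (175 CPM against 129 to 136). Also lowest in that library stood Krt79 (0 CPM against 0.0296 to 0.0334), Ly6d (0 CPM against 0.0296 to 0.0334) and Msx2 (14.7 CPM against 20.8 to 21.5). There, too, the lowest value was found for the sum of adipocyte markers (12.6 CPM against 19.2 to 19.9). Bud replicate 3 was the highest for Calb1 (40 CPM against 0.535 to 4.63), Ccna2 (37.0 CPM against 21.8 to 24.1), Dkk4 (66.5 CPM against 6.44 to 9.70) and Grem1 (18.1 CPM against 3.48 to 4.64). There, too, the highest value was found for Krt4 (2.34 CPM against 0 in the others), Krt6a (1.64 CPM against 0.0297 to 0.0887), Krtdap (0.836 CPM against 0 to 0.0297) and Soat1 (52.2 CPM against 44.3 to 44.9). It was also the highest for the sum of muscle markers (9.66 CPM against 1.94 to 3.00). The same library was highest for the share of mitochondrial counts (4.18% against 2.18 to 2.50). Likewise lowest there were the values for Caln1 (52.9 CPM against 93.8 to 95.4), Fgfr2 (621 CPM against 904 to 934), Fosl2 (138 CPM against 222 to 229) and Ptger4 (2.04 CPM against 7.64 to 7.96). Also lowest in that library stood Trp63 (338 CPM against 435 to 444). There, too, the lowest value was found for the sum of mammary bud genes (5986 CPM against 7785 to 7820.0) and the sum of hair matrix regulators (1835 CPM against 2548 to 2694). Bud replicate 4 was the highest for Btg2 (53.3 CPM against 27.7 to 29.8), Cdkn1a (16.7 CPM against 7.57 to 8.39), Fst (0.615 CPM against 0 in the others) and Gli1 (3.37 CPM against 0.414 to 0.654). It was also the highest for Hhip (0.0324 CPM against 0 in the others), Krtap15 (0.0324 CPM against 0 in the others), Krtap19-9b (0.0324 CPM against 0 in the others) and Krtap3-2 (0.0324 CPM against 0 in the others). The same library was highest for Tgm1 (2.52 CPM against 0.769 to 0.952).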

How the results depend on the processing

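Against the bud, 5324 to 7127 genes were called over all alternatives, against 6601, and 58.9 to 62.4% of them were higher. All counts for the 3 comparisons stayed within 1.5 times of the reported ones. The fewest calls came from the fit of the 9 libraries alone. With offsets from the deposited normalized counts 3 Fgf and MAPK genes, 1 Notch gene and 0 sebaceous genes were called lower. Of the Eda and NF-κB genes 3 were called higher in the fit of the 9 libraries alone and 3 with the replicate block. Leaving out single replicates gave 0 to 1 Notch genes lower, and leaving out bud replicate 3 and late replicate 4 together gave 1. The cause was not tested. With a prior count of 0.5 the median distance from the bud was 361 to late stabilized libraries and 313 to sprouts. Of the 25 gene lists other than cell markers, 23 kept the sign of their median under all 18 alternatives. Among the marker lists the mesenchyme median of -0.277 reached 0.389 without bud replicate 3, and the endothelial median of 0.166 was -0.17 with the deposited offsets. Immune markers called higher were 0 of 4 tested in the 9 libraries alone. Under the other alternatives they ranged from 3 of 10 (without bud replicate 1 or 4) to 6 of 10 (among others DESeq2). The luminal median of 0.22 was -0.0592 without late replicate 1, and that of Wnt ligands and receptors, -0.0135, was 0.000772 to 0.117 under 7 alternatives. No named gene reversed. Over 153 named genes 2704 of 2746 comparisons with an alternative kept direction and side of the threshold, 36 lost the call (12 genes) and 6 gained it (4 genes).

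The labels give the groups the same replicate numbers, but same-numbered bud and late libraries did not deviate together (correlations of -0.0586 to 0.0644). With the replicate block 6077 genes were called, 5935 of them among the 6601, and of the 153 named genes Calb1 and Hbb-bt lost their call. Depth was 27417578 counts or more in each library of the comparison, so that genes at a few counts, such as hair keratins in the bud, are those whose folds are limited by counting.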
